A study of Mus musculus with 4 samples.

Results

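Respiratory chain genes were followed in mouse neural progenitor cells (NPCs) with and without knockdown of Srf, the serum response factor, on a soft and a stiff matrix. The genes were taken by symbol. They are the mt-Nd, mt-Co, mt-Cytb and mt-Atp genes of the mitochondrial genome and, among nuclear genes, the numbered Ndufa, Ndufb, Ndufc, Ndufs and Ndufv genes, the Cox4 to Cox8, Uqcr and Atp5 genes and Sdha, Sdhb, Sdhc and Sdhd. The rule found 97 genes among the 21862 gene symbols listed once in each library, 13 of them mitochondrially encoded and 84 nuclear encoded. This set was chosen by name but with earlier results of the same libraries in view, in particular the FPKM (fragments per kilobase of transcript, scaled to a fixed number of mapped reads) of mitochondrially encoded genes in the shSrf library at 12 kPa against the shSrf library at 0.5 kPa, so that difference is a description and supports nothing.

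The study grew a line of NPCs that carries doxycycline-inducible reprogramming factors (Oct4, Klf4, c-Myc and Sox2) and was differentiated in vitro, on type I collagen-coated matrix of 0.5 or 12 kPa in medium lacking EGF and bFGF. The 4 libraries were control at 0.5 kPa, control at 12 kPa, shSrf at 0.5 kPa and shSrf at 12 kPa, where shSrf is a short hairpin RNA against Srf that was brought in by retrovirus. The labels name no doxycycline in these cultures and do not say whether the control cells had received an empty vector. Each group was 1 library, so no difference below has a replicate check, no test was run and no p-value is given.

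Srf was at 34.4 and 35.6 FPKM in the control libraries and at 16.2 and 17.4 FPKM in the shSrf libraries. Depth, estimated from the lowest FPKM values, was 29100000, 24100000, 45000000 and 62300000 reads in control at 0.5 kPa, control at 12 kPa, shSrf at 0.5 kPa and shSrf at 12 kPa. It thus differed between control and shSrf and also between the shSrf libraries at 0.5 and 12 kPa. Its part in the results was not tested. Of 10 NPC markers, 4 or 5 were above 2 FPKM in each library, with Sox1, Olig2 and Hes5 at 0 in all libraries, while 9 or 10 of 10 mesenchymal markers were above 2 FPKM with summed levels of 3256 to 3658 FPKM. Single markers of both lists and of neurons differed between shSrf and control. Log2 ratios of shSrf to control at 0.5 and 12 kPa were -1.65 and -1.22 for Nes, 2.15 and 1.89 for Sox2 and 1.31 and 0.97 for Pax6. These were the 3 NPC markers above 2 FPKM in all 4 libraries. Among mesenchymal markers Acta2, smooth muscle actin, had -5.58 and -5.17, while Pdgfrb had 0.61 and 0.72. Of 9 mesenchymal markers above 2 FPKM in all libraries, 3 were higher and 3 lower beyond 1.1-fold at 0.5 kPa. At 12 kPa 5 were higher and 2 lower. Over all genes 37.4% were higher and 35.7% lower at 0.5 kPa, and 37.6% and 35.9% at 12 kPa. The neuronal markers Stmn2 and Map2 had 1.76 and 1.72, and 0.79 and 0.51. Tubb3 had 0.02 and 0.58, Syt1 was lower with -0.09 and -0.36, and Dcx and Rbfox3 were below 2 FPKM. The summed level of the 6 neuronal markers was 54.9 and 59.0 FPKM in control and 122.2 and 117.3 FPKM in shSrf. This sum was mostly Stmn2, at 19.06 and 18.67 FPKM in control and 64.56 and 61.31 FPKM in shSrf, and Map2. Map2 was at 29.87 and 35.12 FPKM in control and 51.69 and 50.05 FPKM in shSrf. The higher sum thus does not stand for neuronal markers in general. The part of other cell types in the results was not tested, and fewer cells of a type and less RNA per cell cannot be told apart in these bulk libraries.

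The respiratory chain passes electrons from NADH and succinate to oxygen through complexes I to IV in the inner mitochondrial membrane, and ATP synthase, complex V, uses the proton gradient that complexes I, III and IV build. Complex I, III, IV and V are mosaics of subunits from both genomes, while complex II, succinate dehydrogenase, is nuclear encoded throughout. The mitochondrial genome is transcribed from both strands as long precursors that are cut into the separate mRNAs, so most of its mRNAs share a precursor, whereas each nuclear subunit gene has a promoter of its own. The mitochondrially encoded genes here were 7 of complex I, 1 of complex III, 3 of complex IV and 2 of complex V. The nuclear encoded genes were 35 of complex I, 4 of complex II, 8 of complex III, 20 of complex IV, with Ndufa4 and Ndufa4l2 counted there, and 17 of complex V. Cox7a2l, Atp5s and Atp5sl match the rule but are not counted as subunits of these complexes.

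Genes were compared where they exceeded 2 FPKM in all 4 libraries, the minimum of the study's methods, which 10489 genes passed. Of the members, 10 of 13 mitochondrially encoded and 78 of 84 nuclear encoded genes passed. Differences are given as log2 ratios of FPKM without a pseudocount, and a gene is counted as higher or lower beyond 1.1-fold, the threshold of the study's methods, which is 0.138 on the log2 scale. The median log2 ratio of all genes lay between 0.003 and 0.011 in each of the 4 comparisons.

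Some mitochondrial genes read very low, and a stretch of the genome that holds them also occurs on a nuclear chromosome. In the NCBIM37 mouse assembly, chromosome 1 holds a copy of 4654 aligned bases of the mitochondrial genome, from base 6390 to base 11042, at chr1:24618374-24623027 on the reverse strand, with 99.936% identity. It differs at 2 bases and 1 gap, and the 2 base differences, counted from 1 at the first base of each gene with the mitochondrial base first, are A1066T in mt-Co1 and T3C in mt-Nd3. The authors aligned to mm10, where this copy was not examined here, and kept reads with a mapping quality of at least 20, which removes reads that fit several places equally well. The part of this filter in the low values was not tested. The first 60 bases of mt-Nd3, a small complex I subunit, and of mt-Nd4l, its neighbour, show how close the copy is. The capital marks the only base in these stretches that differs.
mt-Nd3: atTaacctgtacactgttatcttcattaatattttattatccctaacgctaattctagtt
mt-Nd4l: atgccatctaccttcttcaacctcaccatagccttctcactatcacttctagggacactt

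The share of 50-base windows that also occur on a nuclear chromosome was 100% for mt-Co2, mt-Atp8, mt-Atp6, mt-Co3 and mt-Nd4l and 99.0% for mt-Nd3. It was 62.2% for mt-Nd4, 51.1% for mt-Co1, 8.3% for mt-Nd2 and 7.6% for mt-Nd5, and no window of mt-Nd1, mt-Nd6 or mt-Cytb was copied. All 5 of the mitochondrial genes below 60 FPKM lie wholly or almost wholly in the copied stretch. mt-Atp8 lies there too and has the highest FPKM of all members. At 204 nucleotides mt-Atp8 is close to the size of a sequenced fragment, and it overlaps mt-Atp6 by 43 bases, so its FPKM depends strongly on how the authors' software corrected for length.

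The copied genes had these values in control at 0.5 kPa, control at 12 kPa, shSrf at 0.5 kPa and shSrf at 12 kPa. mt-Co2, a catalytic subunit of cytochrome c oxidase, was at 0.569, 0.429, 0.276 and 0.565 FPKM, which corresponds to about 8, 5, 6 and 17 reads. mt-Co3, which belongs to the same complex, was at 0.648, 0.640, 0.419 and 0.495 FPKM, about 11, 9, 11 and 18 reads. mt-Atp6, the proton channel subunit of ATP synthase, was at 2.15, 3.80, 1.66 and 1.81 FPKM, about 30, 44, 36 and 54 reads. These 3 genes were below the minimum and take no part in the medians. mt-Co1 and mt-Nd4, of which a smaller part is copied, were at 436.7 to 2690 FPKM.

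mt-Nd3 passed the minimum with 14.2, 11.5, 4.21 and 2.82 FPKM, about 61, 41, 28 and 26 reads. mt-Nd4l passed it with 37.4, 56.4, 13.3 and 7.22 FPKM. Both were lower in each shSrf library than in either control library. Both lie in the copied stretch, and for mt-Nd3 counting error alone gives the shSrf 12 to 0.5 kPa log2 ratio of -0.57 a standard error of 0.39.

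The remaining mitochondrial genes gave a common picture, in which the shSrf library at 12 kPa was the lowest of the 4 for every gene. mt-Nd1, which begins the coding part of the genome at MT:2751-3707 (GRCm38), was at 2550 and 2518 FPKM in control at 0.5 and 12 kPa and at 2003 and 1535 FPKM in shSrf at 0.5 and 12 kPa. Its control libraries hardly differed and both shSrf libraries were lower than either. mt-Nd2 was at 2202 and 2175 FPKM in control and at 2397 and 1730 FPKM in shSrf, so that shSrf at 0.5 kPa was the highest library and shSrf at 12 kPa the lowest. mt-Nd4 followed the same order with 608.0 and 603.5 FPKM in control and 661.6 and 436.7 FPKM in shSrf.

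mt-Nd5 was at 603.3 and 609.0 FPKM in control and at 540.7 and 345.2 FPKM in shSrf. mt-Nd6, the one member read from the opposite strand, was at 879.1 and 904.6 FPKM in control and at 787.2 and 499.1 FPKM in shSrf. These 2 genes overlap by 14 bases on opposite strands, and whether reads were counted by strand is not given in the sources used here. For mt-Nd5 and mt-Nd6 both shSrf libraries were below both controls, as for mt-Nd1.

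mt-Co1, the subunit of cytochrome c oxidase that reduces oxygen, was at 1838 and 1761 FPKM in control and at 2690 and 1670 FPKM in shSrf. mt-Cytb, the only complex III subunit of this genome, was at 2350 and 2406 FPKM in control and at 2609 and 1736 FPKM in shSrf. mt-Atp8, a small ATP synthase subunit, was at 13993 and 15071 FPKM in control and at 18721 and 12087 FPKM in shSrf. In these 3 genes shSrf at 0.5 kPa was the highest library and shSrf at 12 kPa the lowest.

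**Figure D1:**
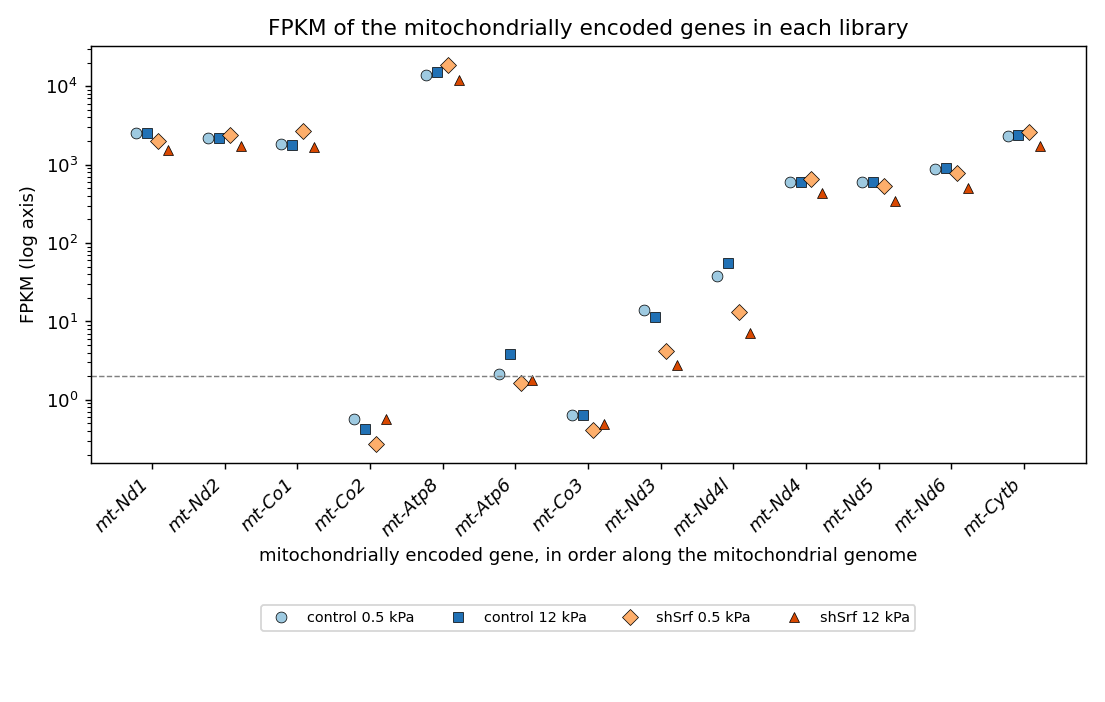
FPKM on a log axis for the 13 mitochondrially encoded genes in their order along the mitochondrial genome, with 1 point for each of the 4 libraries and a dashed line at the minimum of 2 FPKM. mt-Co2, mt-Atp6 and mt-Co3 lie around or below the line, mt-Nd3 and mt-Nd4l between it and 60 FPKM, and in each of the other 8 genes the shSrf library at 12 kPa is the lowest.

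Stiff against soft matrix in control cells was the first comparison, and the mitochondrially encoded genes differed little there. Of the 10 above the minimum, 8 were within 1.1-fold, and their median log2 ratio of 12 to 0.5 kPa was 0.001. mt-Nd4l was higher with a log2 ratio of 0.59 and mt-Nd3 was lower with -0.30, both among the copied genes, beside 17.9% of all genes higher and 16.9% lower beyond 1.1-fold. The others ranged from -0.06 for mt-Co1 to 0.11 for mt-Atp8.

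In shSrf cells the same comparison gave lower mitochondrial values at 12 kPa throughout, which is the difference in view when the set was chosen. All 10 genes were lower beyond 1.1-fold, beside 13% of all genes, and 7 were lower beyond 1.5-fold, beside 0.324% of all genes. The median log2 ratio was -0.62, a ratio of 0.653. In order along the genome it was -0.38 for mt-Nd1, -0.47 for mt-Nd2, -0.69 for mt-Co1, -0.63 for mt-Atp8, -0.57 for mt-Nd3, -0.88 for mt-Nd4l, -0.60 for mt-Nd4, -0.65 for mt-Nd5, -0.66 for mt-Nd6 and -0.59 for mt-Cytb. mt-Nd1 and mt-Nd2, the genes nearest the start, thus had the smallest differences. mt-Nd6, encoded on the other strand, had nearly the value of mt-Nd5, which it overlaps. Since it is not known whether reads were counted by strand, the mt-Nd6 value cannot be assigned to the other strand. Only 34 of all genes were lower beyond 1.5-fold in this comparison, and 7 of them were these mitochondrial genes. For mt-Nd1, mt-Nd6 and mt-Cytb, with no copied window, the median was -0.59.

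The low GC content of the mitochondrial genes, with a median of 36.4% beside 50.3% over all genes, moved with this result. Across 9569 genes the shSrf 12 to 0.5 kPa log2 ratio had a Spearman correlation of 0.342 with transcript GC content, a description across genes of the same 2 libraries. Set against the median of genes of like GC content, the mitochondrial median was -0.545.

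Nuclear encoded members did not share the difference. In control, 10 of 78 were higher, 1 was lower and 67 were within 1.1-fold at 12 kPa, beside 17.9% of all genes higher and 16.9% lower, and the median log2 ratio was 0.03. In shSrf, 9 were higher, beside 17.6% of all genes, 5 were lower, beside 13%, and 64 were within 1.1-fold, with a median of 0.01. No nuclear member exceeded 1.5-fold in either comparison, and few of all genes did, with 0.858% higher and 0.963% lower in control and 0.458% higher and 0.324% lower in shSrf. The medians by complex in shSrf were 0.02 for complex I, 0.02 for complex II, -0.05 for complex III, 0.06 for complex IV and -0.01 for complex V, against -0.60, -0.59, -0.69 and -0.63 for the mitochondrially encoded genes of complexes I, III, IV and V. In shSrf the lowest nuclear member was at -0.20 and the highest mitochondrial gene at -0.38. That comparison was in view when the set was chosen, so the gap is a description and supports nothing. The mitochondrial genes share precursors and come from the same 2 libraries, so they are not separate observations.

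In 2 of the 88 members, mt-Nd4l and Atp5f1, the stiffness difference lay beyond 1.1-fold in opposite directions in control and shSrf, beside 6.01% of all genes.

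The nuclear members at the ends of these comparisons were few. In control the highest were Atp5s, an ATP synthase coupling factor relative, at 0.36, and the tissue isoforms Cox7a1 and Cox6b2 at 0.32 and 0.30. The lowest were Ndufa10 at -0.16, Uqcrc2 at -0.13 and Ndufv1 at -0.13. In shSrf, Cox7a1 at 0.33 and Cox6b2 at 0.24 were again among the 3 highest, with Atp5sl at 0.27, and Ndufv2, Uqcrb and Atp5f1 were the 3 lowest at -0.20, -0.18 and -0.17. Cox7a1, the heart and muscle isoform of a cytochrome c oxidase subunit, was at 9.48 and 11.9 FPKM in control and 14.1 and 17.7 FPKM in shSrf. Cox6b2, known from testis, was at 8.30 and 10.2 FPKM in control and 15.9 and 18.8 FPKM in shSrf. Both genes rest on few reads, about 45 to 181 for Cox7a1 and 85 to 410 for Cox6b2.

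**Figure D2:**
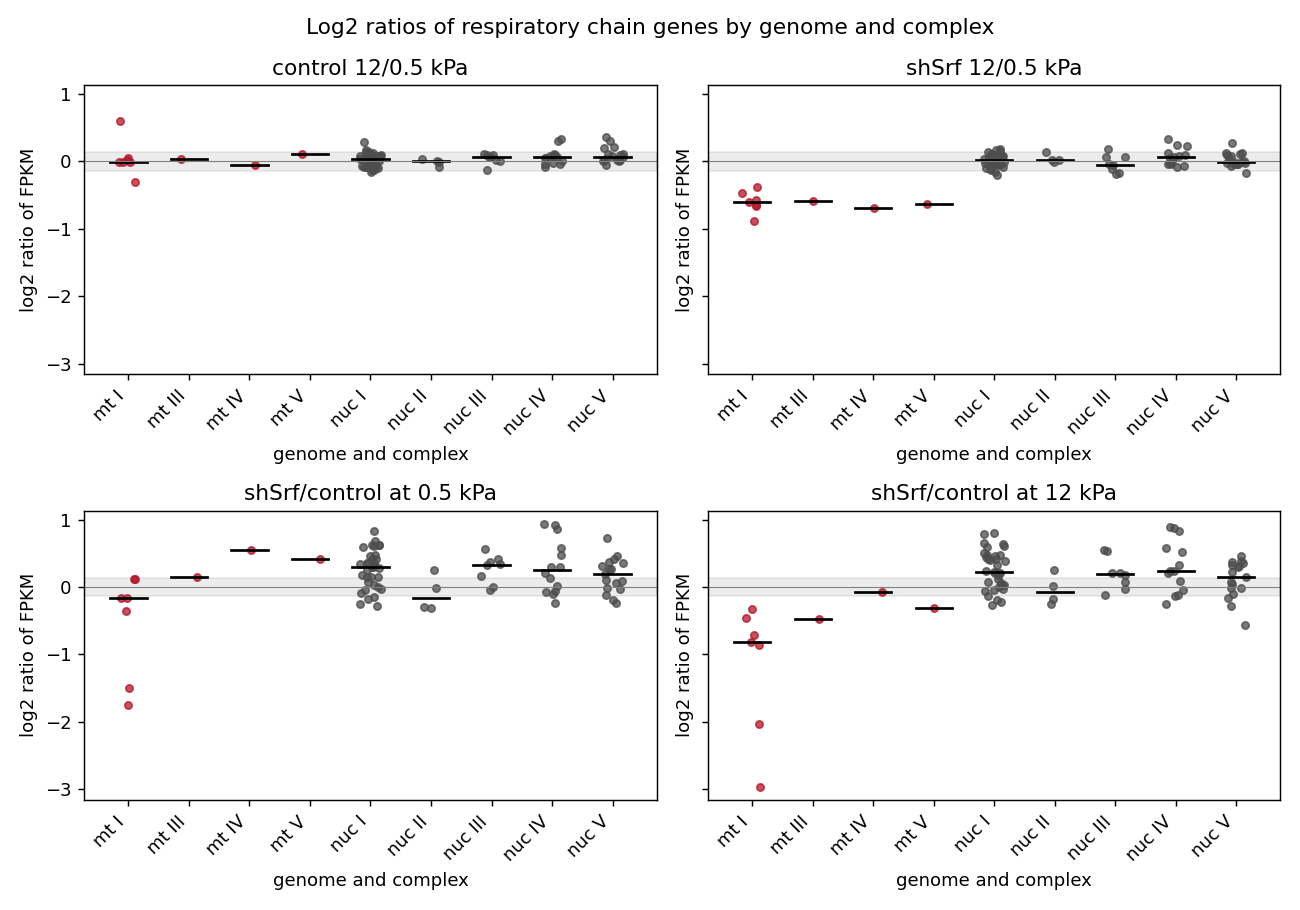
Log2 ratios of FPKM for the 88 members above the minimum, grouped by genome (mt, mitochondrial; nuc, nuclear) and complex, in 4 panels for the 4 comparisons, with 1 point for each gene, a bar at the median and a grey band at 1.1-fold. In the shSrf 12/0.5 kPa panel every mitochondrial point is at or below -0.38 while nuclear points stay between -0.20 and 0.33.

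Summed levels restate the same contrast on the FPKM scale. Without mt-Atp8 and the 5 low genes, 7 mitochondrially encoded genes (mt-Nd1, mt-Nd2, mt-Nd4, mt-Nd5, mt-Nd6, mt-Co1 and mt-Cytb) summed to 11030 and 10980 FPKM in control at 0.5 and 12 kPa and to 11690 and 7953 FPKM in shSrf. The 84 nuclear members summed to 17930 and 18480 FPKM in control and to 20940 and 21170 FPKM in shSrf. The mitochondrial sum was therefore 61.5% and 59.4% of the nuclear sum in control, 55.8% in shSrf at 0.5 kPa and 37.6% in shSrf at 12 kPa.

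**Figure D3:**
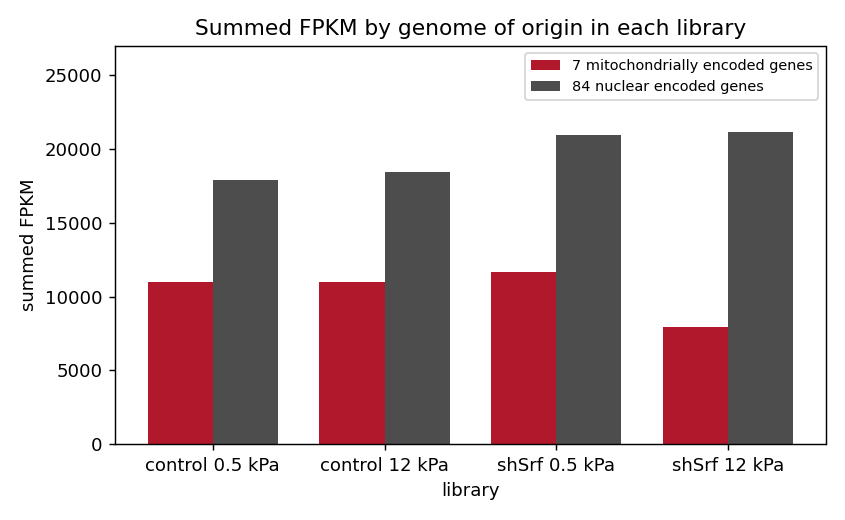
Summed FPKM in each library for 7 mitochondrially encoded genes (red) and all 84 nuclear encoded members (grey). The mitochondrial sum is 7953 FPKM in shSrf at 12 kPa and between 10980 and 11690 FPKM in the other 3 libraries.

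Knockdown against control was compared at each stiffness. The 2 comparisons share no library with each other, but each shares its libraries with the stiffness comparisons, so that the 12 kPa log2 ratio of a gene equals its 0.5 kPa one plus the difference of its stiffness log2 ratios. Among mitochondrially encoded genes, shSrf to control at 0.5 kPa had no common direction. In it 5 genes were lower and 3 higher beyond 1.1-fold, beside 35.7% and 37.4% of all genes. The higher genes were mt-Co1 at 0.55, mt-Atp8 at 0.42 and mt-Cytb at 0.15, and the lower were mt-Nd1 at -0.35, mt-Nd6 and mt-Nd5 at -0.16 each, and the copied genes mt-Nd3 and mt-Nd4l at -1.75 and -1.49. The last 2 were the genes lower beyond 1.5-fold, beside 9.28% of all genes.

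At 12 kPa, 9 of the 10 mitochondrial genes were lower in shSrf beyond 1.1-fold, beside 35.9% of all genes, and 5 beyond 1.5-fold, beside 8.88%. The median log2 ratio was -0.59. This comparison holds the shSrf library at 12 kPa, whose mitochondrial values were in view when the set was chosen. It is thus a description and no separate support. mt-Co1 at -0.08 was within 1.1-fold, and the next were mt-Atp8 at -0.32, mt-Nd2 at -0.33 and mt-Nd4 and mt-Cytb at -0.47 each. Lower still were mt-Nd1 at -0.71, mt-Nd5 at -0.82 and mt-Nd6 at -0.86, and the copied genes mt-Nd3 at -2.03 and mt-Nd4l at -2.96. Without mt-Atp8, mt-Nd3 and mt-Nd4l the median of the 7 others was -0.47. Set against genes of like GC content, the median of the 10 was -0.31.

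Nuclear encoded members were mostly higher in shSrf. At 0.5 kPa 49 of 78 were higher and 9 lower, with a median log2 ratio of 0.27, and at 12 kPa 46 were higher and 9 lower, with a median of 0.21. Over all genes 37.4% and 37.6% were higher at the 2 stiffnesses, and 35.7% and 35.9% were lower. Of the 78, 43 were higher at both stiffnesses (55.1%), where 30.3% of all genes were, and 6 were lower at both, where 28.8% of all genes were. Beyond 1.5-fold, 11 nuclear members were higher at 0.5 kPa and 9 at 12 kPa, beside 9.19% and 10.2% of all genes, so at that size their share was near that of all genes at 12 kPa. None was lower beyond 1.5-fold at either stiffness, beside 9.28% of all genes at 0.5 kPa and 8.88% at 12 kPa.

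Transcript length moved with this difference. The nuclear members are short, with a median annotated transcript length of 686.5 nucleotides where all genes above the minimum had 2290. Across all genes the shSrf to control log2 ratio had a Spearman correlation with length of -0.193 at 0.5 kPa and -0.177 at 12 kPa, and cytosolic ribosomal protein genes, which are short as well, had medians of 0.39 and 0.37. Other genes under 1000 nucleotides had medians of 0.10 and 0.11, against 0.31 and 0.24 for the 53 members of that size. Set against other genes in bins of median transcript length, members kept a median of 0.17 at 0.5 kPa and 0.11 at 12 kPa. With the longest annotated transcript in place of the median one they had 0.03 and -0.003, with 27 higher and 23 lower at 0.5 kPa and 26 higher and 24 lower at 12 kPa. The higher values of nuclear members as a group thus depend on which transcript length the genes are matched by. GC content moved with the shSrf to control log2 ratio too, with a Spearman correlation across all genes of 0.266 at 0.5 kPa and 0.413 at 12 kPa. Set against genes of like GC content, nuclear members had medians of 0.20 and 0.19.

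**Figure D4:**
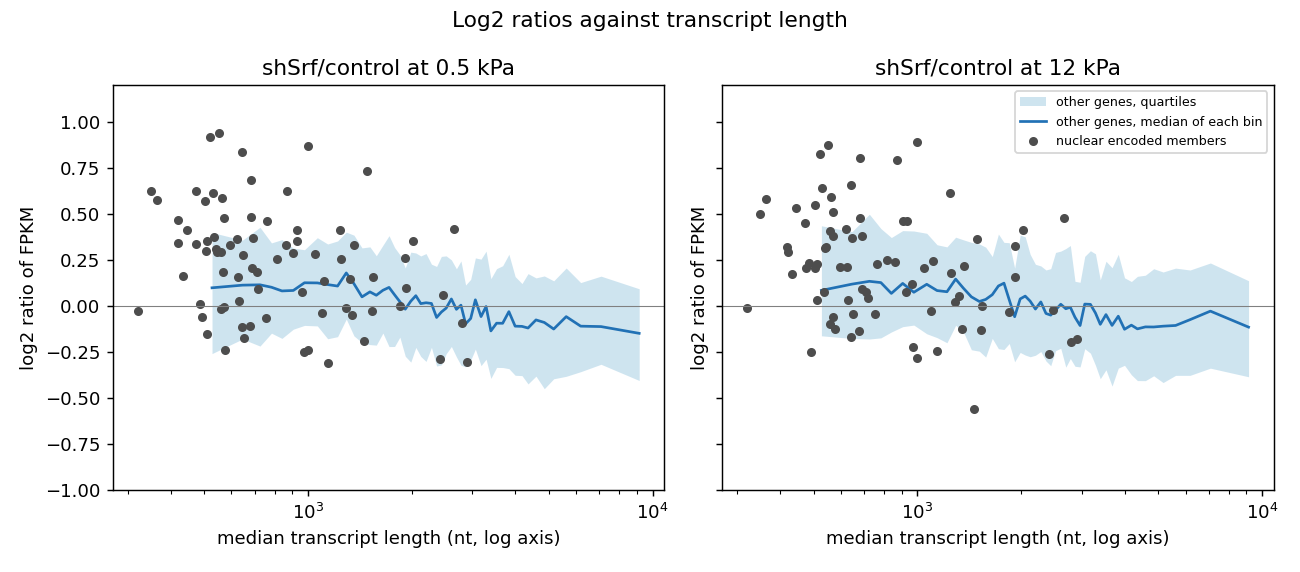
Log2 ratio of shSrf to control at 0.5 kPa (left) and 12 kPa (right) against median transcript length on a log axis for the 78 nuclear members (points), over the median and quartiles of other genes in bins of length. The median of other genes is above 0 at the short end and below 0 at the long end, and most members are short and lie above that median.

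By role, complex I accessory subunits stood highest among the larger groups. The 28 accessory subunits had median log2 ratios of 0.33 at 0.5 kPa and 0.35 at 12 kPa. Within the accessory subunits the 12 Ndufa genes were all higher at 0.5 kPa and 11 of them at 12 kPa, while of the 10 Ndufb genes 4 were higher and 4 lower at 0.5 kPa and 4 higher and 2 lower at 12 kPa. Of all genes 37.4% were higher and 35.7% lower at 0.5 kPa and 37.6% and 35.9% at 12 kPa. Matched on the longest transcript, complex I as a whole had medians of 0.07 and 0.04. Ndufa12 was at 81.1 and 74.3 FPKM in control at 0.5 and 12 kPa and at 130.1 and 129.6 FPKM in shSrf, with log2 ratios of 0.68 and 0.80. Ndufv3, beside the NADH-oxidizing module, was at 98.0 and 108.0 FPKM in control and 175.2 and 169.9 FPKM in shSrf, with 0.84 and 0.65. Both shSrf libraries were above both controls in each gene.

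Other accessory complex I genes beyond 1.5-fold in shSrf were Ndufa2 with 0.61 and 0.64, Ndufs5 with 0.59 and 0.59, Ndufa3 with 0.62 and 0.50, Ndufa7 with 0.63 and 0.45 and, at 12 kPa, Ndufa13 with 0.61 (0.41 at 0.5 kPa). Lower were Ndufb2 with -0.29 and -0.26 and Ndufb4 with -0.25 and -0.22. Ndufb4 and Ndufs5 have second copies in the assembly over 41.3% and 49.8% of their windows. Ndufb2 was at 122.4 and 123.3 FPKM in control and 100.3 and 102.8 FPKM in shSrf. Ndufb8 and Ndufb9, at -0.15 and -0.18 at 0.5 kPa, were at 0.03 and -0.04 at 12 kPa, while Ndufb3, Ndufb7 and Ndufb11 had 0.46, 0.36 and 0.29 at 0.5 kPa and 0.23, 0.42 and 0.46 at 12 kPa. Among other accessory subunits, Ndufc2 had 0.48 and 0.48, Ndufc1 0.26 and 0.18, Ndufs6 0.18 and 0.38 and Ndufs4 -0.02 and -0.13.

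Core subunits of complex I were mixed. Ndufs7, which holds the last iron-sulfur cluster before ubiquinone, was at 81.4 and 76.0 FPKM in control and at 125.3 and 131.5 FPKM in shSrf, with log2 ratios of 0.62 and 0.79. Ndufs3 had 0.28 and 0.20, and Ndufv2 0.35 and 0.07. Ndufs8 had 0.08 and 0.12, and Ndufv1 -0.04 and -0.03. Ndufs1, the largest iron-sulfur subunit, had -0.09 and -0.20.

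Complex II, the complex with no mitochondrially encoded subunit, had nuclear medians below 0, with -0.16 at 0.5 kPa and -0.08 at 12 kPa over 4 genes. The other complexes had medians above 0 before matching on length, but matched on the longest transcript complex IV was also below 0 at both stiffnesses, with -0.02 and -0.01, and complexes III and V at 12 kPa. Sdha, the flavoprotein that oxidizes succinate, was at 263.0 and 265.0 FPKM in control and at 213.4 and 234.5 FPKM in shSrf, with log2 ratios of -0.30 and -0.18. Sdhb, the iron-sulfur subunit, was at 110.7 and 104.8 FPKM in control and 89.3 and 88.4 FPKM in shSrf, with -0.31 and -0.24. The membrane anchors differed from each other, since Sdhc had 0.25 and 0.25 and Sdhd -0.01 and 0.02.

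In complex III, 6 of 8 genes were higher at 0.5 kPa and 5 at 12 kPa, with medians of 0.33 and 0.19 and none lower. Over all genes 37.4% and 37.6% were higher, and 35.7% and 35.9% lower. Matched on the longest transcript the medians were 0.04 and -0.10, with 2 genes higher and 2 lower at each stiffness. Uqcrq, an accessory subunit, was at 309.1 and 328.2 FPKM in control and 458.4 and 480.6 FPKM in shSrf, with 0.57 and 0.55. Uqcr11 had 0.41 and 0.53, and Uqcrfs1, the Rieske iron-sulfur protein, 0.33 and 0.22. The core proteins Uqcrc1 and Uqcrc2 had -0.05 and -0.12, and 0.00 and -0.03. Uqcrb had 0.37 and 0.08, with a second copy of 61.5% of its windows.

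Complex IV held the nuclear genes with the highest ratios. Cox5b, which binds zinc, lies at chr1:36691487-36693388 (GRCm38) and was at 396.6 and 411.7 FPKM in control and 750.2 and 729.8 FPKM in shSrf, with log2 ratios of 0.92 and 0.83. Cox7b was at 268.9 and 252.4 FPKM in control and 490.4 and 468.4 FPKM in shSrf, with 0.87 and 0.89. In both genes the shSrf libraries stood well above the controls at either stiffness, and after matching on the longest transcript Cox5b still had 0.61 and 0.54 and Cox7b 0.65 and 0.67. Cox5b has second copies over 62.7% of its windows and Cox7b over 6.5%.

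The low-level isoforms Cox6b2, with 0.94 and 0.87, and Cox7a1, with 0.58 and 0.58, were higher as well, and their ubiquitous counterparts had smaller ratios. Cox6b1 had 0.30 and 0.21 at 658.4 to 810.5 FPKM, and Cox7a2 -0.07 and -0.04 at 231.5 to 250.5 FPKM. Cox4i1, whose product is regulated by ATP, had -0.11 and -0.14, and Cox5a 0.21 and 0.09. Cox6a1 had 0.48 and 0.51 and Cox8a 0.29 and 0.32. Ndufa4 had -0.06 and -0.25, and Cox6c, at -0.24 and -0.12, was the only nuclear complex IV gene above the minimum that was lower beyond 1.1-fold at 0.5 kPa. Cox7c, at 0.01 and 0.23, was higher at 12 kPa only, and Cox7a2l, which helps complexes join into supercomplexes, had 0.13 and 0.24.

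The 6 nuclear members below the minimum were all tissue isoforms. Cox4i2, known from lung and as a hypoxia-responsive form, was at 0.914 and 1.09 FPKM in control and 0.464 and 0.519 FPKM in shSrf. Ndufa4l2, also known from hypoxia, was at 0.609, 0.735, 0.617 and 0.702 FPKM. Cox6a2 and Cox7b2 were listed at 0 in both control libraries and at 0.232 and 0.134 FPKM, and 0.0651 and 0.0471 FPKM, in shSrf. These shSrf values correspond to about 4.8 and 3.8 reads for Cox6a2 and 1.0 and 1.0 for Cox7b2, in libraries deeper than the controls. Cox8b was at 0.260 FPKM in control at 12 kPa and 0.139 FPKM in shSrf at 0.5 kPa and listed at 0 in the other two, and Cox8c was listed at 0 in all 4.

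Complex V had medians of 0.19 and 0.15, with 9 of 17 genes higher at each stiffness, beside 37.4% and 37.6% of all genes. Matched on the longest transcript the medians were 0.01 and -0.06, with 5 genes higher at each stiffness and 6 lower at 0.5 kPa and 7 at 12 kPa. Atp5b, the catalytic beta subunit, was at 1056 and 1079 FPKM in control and 1265 and 1353 FPKM in shSrf, the highest FPKM of the nuclear members, with log2 ratios of 0.26 and 0.33. Atp5a1, its partner in the catalytic ring, had 0.06 and -0.02, and the gamma subunit gene Atp5c1 -0.24 and -0.28. Atp5d and Atp5e, the other central stalk subunits, had 0.41 and 0.46, and 0.47 and 0.29.

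The genes of one protein, the c-ring subunit, were Atp5g1 with 0.37 and 0.38, Atp5g2 with 0.27 and 0.37 and Atp5g3 with 0.09 and 0.04, and every window of Atp5g2 has a second copy in the assembly. Atp5f1, the peripheral stalk subunit b, was at 246.4 and 282.7 FPKM in control and 216.0 and 191.6 FPKM in shSrf, with -0.19 and -0.56. It was the lowest nuclear member at 12 kPa. Its stalk partners Atp5h and Atp5o had -0.11 and -0.17, and -0.01 and -0.10, and Atp5j had 0.19 and 0.08. Among the small membrane subunits Atp5j2 had 0.31 and 0.31, Atp5l 0.35 and 0.23, and Atp5k -0.03 and -0.01. Atp5s was at 12.3 and 15.8 FPKM in control and 20.5 and 20.3 FPKM in shSrf, with 0.73 and 0.36.

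**Figure D5:**
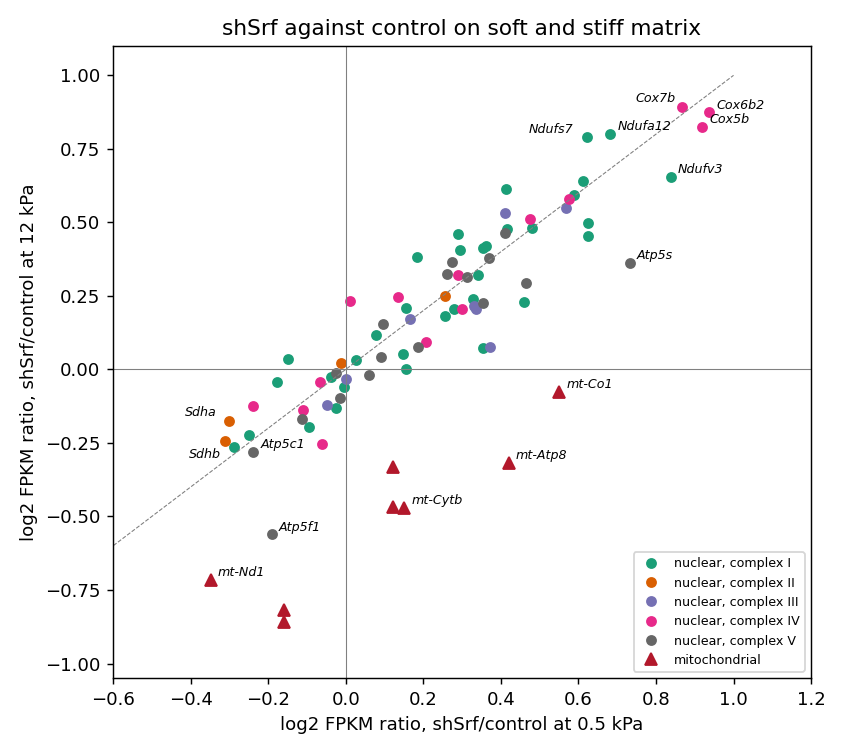
Log2 ratio of FPKM of shSrf to control at 0.5 kPa (horizontal) and at 12 kPa (vertical) for nuclear members coloured by complex and for 8 mitochondrially encoded genes (triangles), with a dashed line of equal ratios. mt-Nd3 and mt-Nd4l lie below the plotted range. Nuclear genes lie along the line with Cox7b, Cox6b2 and Cox5b at its upper end, and the triangles all lie below it.

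Promoters of the nuclear members were searched for sequences known to occur before respiratory genes. RefSeq sequences of GRCm38.p6, from 250 bases before to 50 bases after a start site, were found for 69 of the 84 genes. The core of the NRF1 site, GCGCANGCG, was present on either strand in 20 of them (29.0%), beside 16.9% of 8397 other genes above the minimum and 6.25% of all 32851 promoters. The YY1 sequence AAGATGGCG was present in 8 (11.6%), beside 3.91% and 1.40%, and the GABPA sequence CCGGAAGT in 5 (7.25%), beside 10.3% and 3.89%. The CArG box, the sequence Srf binds, was present in 0 of the 69, beside 1.52% and 1.63%. These shares count letters in a window and show no binding.

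The 20 genes with the NRF1 core had median shSrf to control log2 ratios of 0.14 and 0.13, and the 47 genes above the minimum without it 0.30 and 0.23. These groups were not matched on transcript length, GC content or complex, and the part of the core in the ratios was not tested. The core stood before genes that were lower in shSrf and before genes that were higher, for which Sdha and Ndufs5 are shown with the 200 bases before the start site and every NRF1 core in capitals. The Sdha stretch is chr13:74350241-74350440 on the reverse strand of GRCm38.p6, with the core 3 times, and the Ndufs5 stretch is chr4:123718187-123718386 on the reverse strand, with the core at 1 place. Sdha had log2 ratios of -0.30 and -0.18 and Ndufs5 of 0.59 and 0.59.
Sdha: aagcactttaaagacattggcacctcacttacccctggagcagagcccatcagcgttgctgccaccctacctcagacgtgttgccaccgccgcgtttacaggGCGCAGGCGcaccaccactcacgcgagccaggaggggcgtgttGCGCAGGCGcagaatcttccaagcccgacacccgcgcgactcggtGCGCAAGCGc
Ndufs5: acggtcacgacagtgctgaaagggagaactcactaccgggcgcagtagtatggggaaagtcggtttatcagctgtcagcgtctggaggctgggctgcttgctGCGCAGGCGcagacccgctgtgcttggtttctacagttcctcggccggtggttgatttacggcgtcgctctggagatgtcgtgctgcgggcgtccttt

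Other genes of the pathway, from lists drawn up for this purpose, were counted in the same way, beside 37.4% of all genes higher and 35.7% lower in shSrf at 0.5 kPa and 37.6% and 35.9% at 12 kPa. Of 13 complex I assembly factors, 8 were lower and 2 higher in shSrf at 0.5 kPa, and 6 lower and 1 higher at 12 kPa, with medians of -0.23 and -0.12. Ndufaf4 was among them with -0.74 and -0.61. The complex I subunits had medians of 0.30 and 0.23, but 0.07 and 0.04 when matched on the longest transcript. The assembly factors and the other lists here were not matched on length, so their medians cannot be set against matched ones. Of 18 complex IV assembly factors above the minimum, 4 were lower and 6 higher at 0.5 kPa, and 2 lower and 9 higher at 12 kPa, with Coa3 at 0.71 and 0.50. Of the 6 complex III assembly factors 3 were higher and 3 lower at 0.5 kPa, and 3 higher and 2 lower at 12 kPa, with medians of -0.11 and 0.27. Of the 4 complex V assembly and regulatory factors 2 were higher and 1 lower at 0.5 kPa, and 2 higher and none lower at 12 kPa. Of 5 further genes, subunits outside the name rule and cytochrome c, 3 were higher and 1 lower at 0.5 kPa, and 2 higher and none lower at 12 kPa. Cyc1 had -0.18 and -0.03, Ndufab1 0.38 and 0.22, Usmg5 0.43 and 0.09, 2410015M20Rik 0.49 and 0.56, and Cycs, which carries electrons from complex III to IV, -0.13 and -0.07.

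These shares of all genes hold for the next lists too. Of the 13 tricarboxylic acid cycle genes, 9 were lower and 1 higher at each stiffness, with medians of -0.21 and -0.21. Of the 78 mitochondrial ribosomal protein genes, 37 were higher and 15 lower at 0.5 kPa and 31 higher and 18 lower at 12 kPa, with medians of 0.13 and 0.08, so that the share higher at 12 kPa was near that of all genes. Of 16 genes of the outer membrane, protein import, chaperones and carriers, 7 were higher and 4 lower at 0.5 kPa and 9 higher and 5 lower at 12 kPa. Vdac2, the outer membrane channel, had -0.65 and -0.58, and Tomm20, an import receptor, 0.59 and 0.57.

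Genes that transcribe, maintain or process mitochondrial DNA and RNA had list medians near 0 between stiffnesses, with single genes further away. In shSrf at 12 against 0.5 kPa, 4 of 13 transcription and maintenance genes were lower and 1 higher, with a median of -0.05, and 1 of 16 RNA processing genes was lower and 2 higher, with a median of -0.01, beside 13% of all genes lower and 17.6% higher. Tfam, which packages and activates mitochondrial DNA, was at 49.9 and 56.9 FPKM in control and 44.9 and 43.4 FPKM in shSrf. Polg, the mitochondrial DNA polymerase, was at 115.7 and 90.8 FPKM in control and 79.0 and 62.2 FPKM in shSrf, lower at 12 kPa in both cell populations, with log2 ratios of -0.35 in control and -0.34 in shSrf. Lrpprc, which stabilizes mitochondrial mRNAs, had a shSrf 12 to 0.5 kPa log2 ratio of -0.09. Fastkd2, which binds mitochondrial RNA, had -0.45 and was the 1 RNA processing gene lower beyond 1.1-fold. A link between it and the mitochondrially encoded genes was not tested.

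Among nuclear regulators of respiratory genes, Ppargc1a and Ppargc1b were below the minimum. Nrf1 had shSrf to control log2 ratios of 0.37 and 0.28, Gabpa -0.60 and -0.61, and Yy1 0.33 and 0.19.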

How the data were processed

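One RNA-seq library was made for each of the 4 groups from polyadenylated RNA with a stranded kit. The authors trimmed reads with cutadapt 1.9.1, aligned them to mm10 with TopHat2 2.1.0 and Bowtie2 2.2.8, kept a mapping quality of at least 20 and computed the deposited FPKM per gene with Cufflinks 2.2.1 on GENCODE annotation. The deposited FPKM values hold no counts.

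The members and lists were chosen with earlier results of these data known. Here the 4 tables were joined by symbol, leaving out 63 symbols that were listed more than once. Genes above 2 FPKM in all libraries were compared by log2 ratio and counted beyond 1.1-fold. Depth was read from the commonest FPKM steps below 0.1 FPKM, and reads per gene from FPKM, depth and the transcript length less 200 nucleotides, so counting errors are approximate. Lengths and GC content came from GENCODE M1 transcripts, for 91.2% of genes, in 50 bins. Copies were searched in NCBIM37 with blastn 2.17.0. The text names every mitochondrial member, core subunits, tissue isoforms, the 3 highest and lowest nuclear members per comparison, members beyond 1.5-fold and members below the minimum, except 1 item that is not reported here. Other genes were picked as examples after their values were seen. Steps were run in Python 3.11.15. The depth estimates and centring by median transcript length were tested on simulated data, and the other steps were not.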

Additional observations from a re-analysis of the deposited data

Results flagged for a closer look

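In 2 members the 12 to 0.5 kPa log2 ratio lay beyond 1.1-fold in opposite directions in control and shSrf, beside 6.01% of all genes, so the share of members, 2 of 88, was below that of all genes. With 1 library per group this difference was not tested. For mt-Nd4l the ratio was 0.59 in control and -0.88 in shSrf, a difference of 1.47, and all of its 50-base windows have a nuclear copy. Its transcript has only 297 nucleotides, so its values also rest on few reads, and their counting error is not given here. For Atp5f1 the ratio was 0.20 in control and -0.17 in shSrf, a difference of 0.37, and 23.9% of its windows have a second copy. Whether these copies took part in the differences was not tested. Groups of 1 library could not be searched for outlying samples.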

How the results depend on the processing

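No paired analysis was possible because only 1 library stood for each group and the results come from no test. For the same reason no replicate could be left out. For medians of mitochondrially encoded members, 55 values under alternatives stayed within 1.1-fold of the reported one and 13 moved further. For nuclear members 64 stayed, 3 moved further and 1 turned sign. The shSrf 12 to 0.5 kPa mitochondrial median stayed between -0.63 and -0.55 under all alternatives run. This difference was in view when the set was chosen, and every alternative used the same libraries. The narrow range is thus a description and supports nothing. The cause of the changes below was not tested.

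For the mitochondrial median of shSrf to control at 0.5 kPa (-0.02), a minimum of 1 FPKM, a mean above 2 FPKM or leaving out overlapping genes gave -0.158, no minimum with a pseudocount of 1 gave -0.159, leaving out copied genes -0.159, a minimum of 5 FPKM or leaving out transcripts under 500 nucleotides 0.122, centring by GC content 0.171 and by longest transcript -0.195, and leaving out each member in turn -0.158 to 0.122. At 12 kPa (-0.59) centring by GC content gave -0.311 and by longest transcript -0.769. Mitochondrial counts in control at 12 against 0.5 kPa (1 lower, 1 higher) became 0 lower with a minimum of 5 FPKM, without short transcripts, without copied genes or at 1.5-fold, 0 higher without short, overlapping or copied genes, and 2 higher with the other minimums. In shSrf (10 lower, 0 higher) they became 3 of 3 lower without copied genes and 1 higher with no minimum. For shSrf to control at 0.5 kPa (5 lower, 3 higher) there were 8 lower with no minimum, 3 lower and 5 higher after GC centring, 3 lower without short transcripts, 2 lower and 0 higher at 1.5-fold, 2 lower and 1 higher without copied genes and 1 higher after centring by longest transcript. At 12 kPa (9 lower) there were 5 at 1.5-fold, 3 without copied genes and 1 higher after GC centring.

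For nuclear members, centring by length bins of all genes moved the median of shSrf to control to 0.0948 on the soft and 0.0659 on the stiff matrix, and by longest transcript to 0.0350 and -0.00338. Their counts at 0.5 kPa (49 higher, 9 lower) became 15 lower when scaled to nuclear genes, 19 lower by length bins of all genes, 16 lower by length bins of other genes, 27 higher and 23 lower by longest transcript, and 11 higher and 0 lower at 1.5-fold. At 12 kPa (46 higher, 9 lower) they became 18 lower when scaled to nuclear genes, 29 higher and 19 lower by length bins of all genes, 16 lower by those of other genes, 26 higher and 24 lower by longest transcript, and 9 higher and 0 lower at 1.5-fold. Between stiffnesses, control (10 higher, 1 lower) became 2 lower by GC bins, 3 lower by longest transcript and 0 either way at 1.5-fold, and shSrf (9 higher, 5 lower) became 0 either way at 1.5-fold and 3 lower without members with a second copy. Centring by length and leaving out copied genes were chosen after seeing the data.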
